A study of Mus musculus with 15 samples.

Results

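Aldo-keto reductases and carbonyl reductases use NADPH to reduce aldehydes and ketones to alcohols. The 10 genes described here were taken by symbol from a fixed list of names: *Akr1b3*, *Akr1b7*, *Akr1b8* and *Akr1b10* of the AKR1B group, *Akr1c13*, *Akr1c14*, *Akr1c18* and *Akr1c21* of the AKR1C group, and the carbonyl reductases *Cbr1* and *Cbr3*. The list was chosen with earlier results of these data known. All 10 are among the 35880 genes with a symbol in the expression table. The cells were Lewis lung carcinoma (LL2) carrying a luciferase reporter, a mouse lung tumor line, in 5 lines with 3 biologic replicates each: LL2 WT, the parental cells; *KEAP1* KO #1, #2 and #3, in which *Keap1* was disrupted by CRISPR; and *NRF2* KO, in which *Nfe2l2* was disrupted. Each knockout line is 1 clone grown from a single sorted cell, whereas LL2 WT was not cloned, so an effect of the edit cannot be told apart from a property of a clone where only 1 clone shows it. None of the lines received a drug, and RNA was taken 24 h after the cells were split.

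NRF2 is a transcription factor of the response to oxidants and electrophiles, and KEAP1 is the adaptor that marks it for degradation. Many genes of carbonyl detoxification are known targets of NRF2, which binds antioxidant response elements with small MAF partners. Within the families, *Akr1b3* encodes aldose reductase, which turns glucose into sorbitol, *Akr1c14* a 3-alpha-hydroxysteroid dehydrogenase, *Akr1c18* the 20-alpha-hydroxysteroid dehydrogenase that inactivates progesterone, and *Cbr1* a carbonyl reductase that acts on quinones and prostaglandins.

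The values are CPM, read counts that the authors scaled to a common total, and no read number is given for single samples. From the stated mean depth, 0.1 CPM stands for 3 reads and was taken as the floor. Between 17270 and 19750 genes per sample were above 0. *Keap1* was at 22.0 to 24.0 CPM in LL2 WT, at 10.8 to 12.5 CPM in *KEAP1* KO #1 and at 3.78 to 7.29 CPM in *KEAP1* KO #2 and #3, so transcripts of the targeted gene were still counted in every clone. *Nfe2l2* was at 170 to 208 CPM in LL2 WT, at 102 to 146 CPM in *NRF2* KO and at 87.0 to 124 CPM in the *KEAP1* KO clones, so its level did not set *NRF2* KO apart. Of the lung epithelium genes, *Nkx2-1* and *Scgb1a1* were at or under the floor in all lines, as were *Epcam* and *Cdh1* of the 4 epithelial genes. The other epithelial genes were counted in every sample, *Krt8* with means of 75.3 to 172 CPM and *Krt18* with means of 295.5 to 534 CPM over the lines. Of the 3 mesenchymal genes, *Vim* was at 3130 to 5427 CPM in LL2 WT and *NRF2* KO and at 1534 to 2029 CPM in the *KEAP1* KO clones. *Cdh2* did not follow *Vim*, with means of 6.73 CPM in LL2 WT, 10.9, 0.351 and 11.7 CPM in the clones and 10.4 CPM in *NRF2* KO, and *Zeb1* had means of 17.7 to 25.6 CPM. The part of these differences in the results was not tested. A list of 7 leukocyte, endothelial and fibroblast genes summed to 7.97 to 22.7 CPM. Most of this was *Pdgfra* (means of 2.90 to 11.4 CPM over the lines) and *Pecam1* (3.08 to 5.54 CPM). *Cdh5* had means of 0.0227 CPM in LL2 WT, 0.104, 0.819 and 1.25 CPM in the clones and 0.197 CPM in *NRF2* KO. The leukocyte genes were at no more than 0.192 CPM. *Sftpc*, the remaining lung epithelium gene, was at no more than 0.422 CPM.

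The members lie in 3 clusters of GRCm38. The *Akr1b* genes span 120.7 kb of chromosome 6, with *Akr1b3* (34302434 to 34317478) on the minus strand and *Akr1b8* (34354119 to 34368463), *Akr1b10* (34384218 to 34396950) and *Akr1b7* (34412334 to 34423142) on the plus strand. The *Akr1c* genes span 537.5 kb of chromosome 13, with *Akr1c14* (4049011 to 4090688), *Akr1c13* (4191150 to 4205596) and *Akr1c21* (4574075 to 4586541) on the plus strand and *Akr1c18* (4132615 to 4150654) on the minus strand. *Cbr1* (93605853 to 93610505) and *Cbr3* (93683215 to 93690990) lie 1 after the other on the plus strand of chromosome 16.

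The 250 bases before the RefSeq start (GRCm38.p6) are shown for the members that differed most between lines, and for *Akr1c12*, the near copy of *Akr1c13*. They are *Cbr1* (chr16:93607587-93607836, plus strand), *Cbr3* (chr16:93682969-93683218, plus), *Akr1c18* (chr13:4150647-4150896, minus), *Akr1c13* (chr13:4190937-4191149, plus), *Akr1c12* (chr13:4279434-4279649, minus), *Akr1c14* (chr13:4059341-4059540, plus) and *Akr1b8* (chr6:34353896-34354145, plus). Capitals mark GCGTG, the core of the xenobiotic response element, on either strand. Windows that an exon of the same gene entered by more than 30 bases are shown only up to that exon (*Akr1c13*, *Akr1c12* and *Akr1c14*). The windows of *Cbr1* and *Akr1c14* lie inside the gene spans given above, since the annotated starts differ.
Cbr1: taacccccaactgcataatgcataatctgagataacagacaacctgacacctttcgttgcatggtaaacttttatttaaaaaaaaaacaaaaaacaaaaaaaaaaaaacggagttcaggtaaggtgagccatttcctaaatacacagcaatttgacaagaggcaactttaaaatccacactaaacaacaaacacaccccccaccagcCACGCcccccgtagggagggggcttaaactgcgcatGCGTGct
Cbr3: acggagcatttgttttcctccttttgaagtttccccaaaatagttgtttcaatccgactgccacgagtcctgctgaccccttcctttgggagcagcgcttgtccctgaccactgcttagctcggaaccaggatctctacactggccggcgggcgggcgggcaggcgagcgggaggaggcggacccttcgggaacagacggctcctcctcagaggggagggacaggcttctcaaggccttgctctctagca
Akr1c18: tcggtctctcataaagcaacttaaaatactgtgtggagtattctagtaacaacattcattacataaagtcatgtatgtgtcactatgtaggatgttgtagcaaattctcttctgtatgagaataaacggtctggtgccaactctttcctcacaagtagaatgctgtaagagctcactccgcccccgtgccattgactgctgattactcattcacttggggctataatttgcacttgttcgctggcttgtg
Akr1c13: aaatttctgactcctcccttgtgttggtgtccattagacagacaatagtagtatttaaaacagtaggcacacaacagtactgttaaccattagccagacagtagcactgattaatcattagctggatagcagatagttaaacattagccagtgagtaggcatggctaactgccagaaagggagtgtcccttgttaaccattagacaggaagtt
Akr1c12: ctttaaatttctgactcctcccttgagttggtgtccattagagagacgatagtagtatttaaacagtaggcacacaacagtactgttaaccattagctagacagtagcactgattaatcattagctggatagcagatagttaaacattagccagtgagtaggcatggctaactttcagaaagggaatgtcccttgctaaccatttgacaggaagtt
Akr1c14: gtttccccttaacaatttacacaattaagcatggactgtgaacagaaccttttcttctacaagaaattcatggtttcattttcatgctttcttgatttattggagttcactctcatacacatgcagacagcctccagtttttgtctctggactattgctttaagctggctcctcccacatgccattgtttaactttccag
Akr1b8: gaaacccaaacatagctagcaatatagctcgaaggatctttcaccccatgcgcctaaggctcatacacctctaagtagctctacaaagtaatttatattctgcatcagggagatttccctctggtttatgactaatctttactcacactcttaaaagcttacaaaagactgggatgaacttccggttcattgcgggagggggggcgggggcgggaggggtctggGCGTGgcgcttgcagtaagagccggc

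The core of the antioxidant response element, TGACNNNGC, was in none of the 9 member windows held by the table, on either strand, and in 10.16% of all 32851 windows. GCGTG was found in *Akr1b8* and *Cbr1*, and in 28.16% of all windows. These counts describe the letters of the windows only. *Akr1b3* has no window in the table. The windows of *Akr1c13* and *Akr1c12* were 92.5% identical and their transcripts 94.4%, while those of *Cbr1* and *Cbr3* were 42.3% and 67.8% identical.

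Lines were compared with limma on log2(CPM + 0.1) over the 14652 genes whose CPM summed to at least 3, in 1 model of all 15 samples. Fold changes are on this scale, which understates the change of low genes. To be called, a gene needed a log2 fold change above 1 in size and an adjusted p (Benjamini-Hochberg, over all genes tested) under 0.05. Of the 10 members, 9 were tested. *Akr1b7* summed to 2.82 CPM and was left out. *Akr1c13* and *Akr1c18* passed the filter only through the *KEAP1* KO samples, where they were high. Their calls, their adjusted p-values and their part in the counts and medians below are therefore not independent of the filter.

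Against LL2 WT, 4 of the 9 tested members were called higher and 0 lower in *KEAP1* KO #1, where 4.55% of all genes were called higher and 3.99% lower. In *KEAP1* KO #2, 6 were called higher and 1 lower, against 5.94% and 7.75% of all genes. In *KEAP1* KO #3, 5 were called higher and 0 lower, against 6.09% and 7.34%. In *NRF2* KO, 0 were called higher and 1 lower, against 0.0887% and 0.375%. At an unadjusted p under 0.05 from limma there were 4, with *Akr1c13* higher and *Akr1b8*, *Akr1c14* and *Cbr3* lower. The share of all genes under that p was not taken, so this count has no background. The median log2 fold change of the tested members was 0.83, 1.06, 1.49 and −0.23 in the 4 lines in this order, and that of all genes 0.11, 0.03, 0.02 and 0.04. *Akr1c13*, *Akr1c18* and *Cbr3* were called higher in all 3 *KEAP1* KO clones. Of these, only *Cbr3* would have passed the filter without the *KEAP1* KO samples. The clones share their LL2 WT samples, so the 3 comparisons are not independent. Since the members were chosen with earlier results of these data known, their counts beside the shares of all genes are a description, not an independent test.

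**Figure D1:**
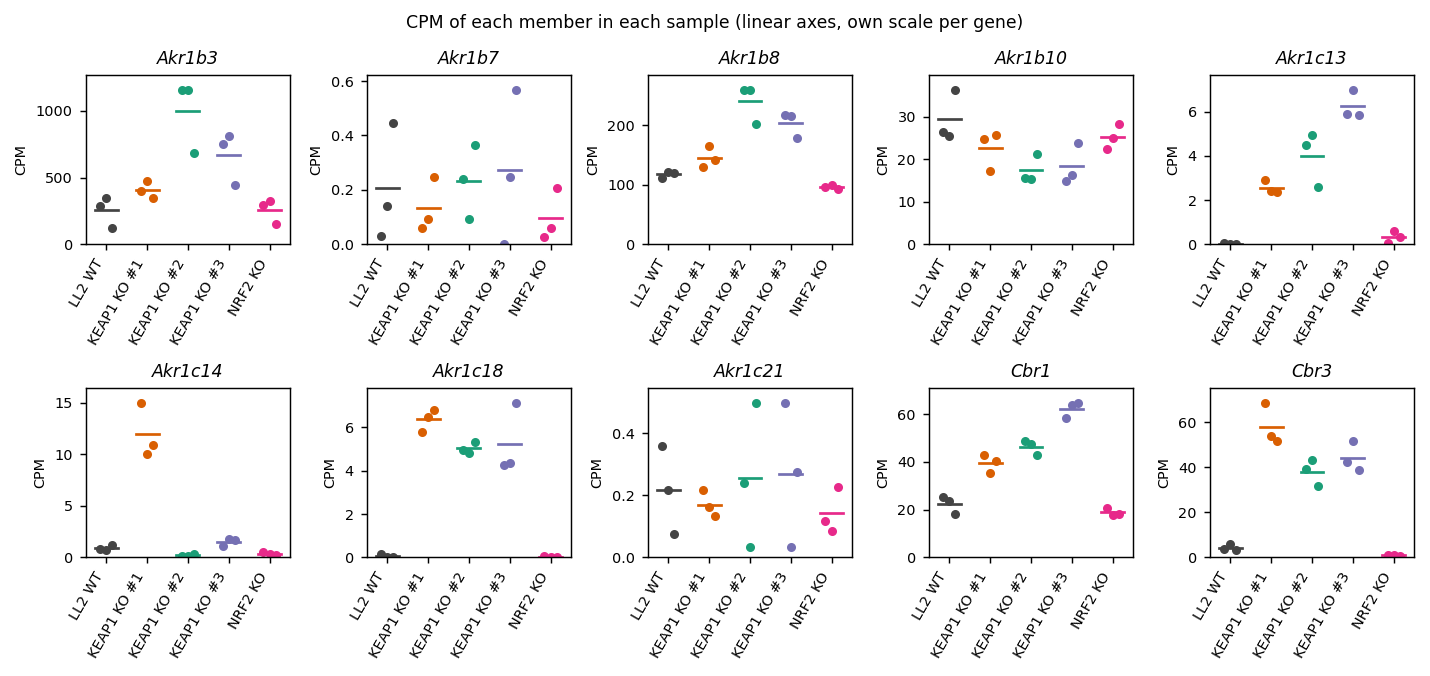
CPM (linear axis, own scale for each gene) of the 10 members in each sample. Points are samples, lines are means of 3 samples. *Cbr3* lies at 31.6 to 68.4 CPM in the *KEAP1* KO clones and at 3.47 to 5.82 CPM in LL2 WT, and *Akr1c14* is high in *KEAP1* KO #1.

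*Cbr3*, the less studied paralog of *Cbr1*, was at 3.66, 5.82 and 3.47 CPM in LL2 WT. It was at 68.4, 53.9 and 51.5 CPM in *KEAP1* KO #1, at 39.1, 43.3 and 31.6 CPM in *KEAP1* KO #2 and at 42.2, 51.7 and 38.8 CPM in *KEAP1* KO #3. In *NRF2* KO it was at 1.14, 1.23 and 0.769 CPM. All *KEAP1* KO samples lay above and all *NRF2* KO samples below every LL2 WT sample. *Cbr3* rose by 3.74, 3.13 and 3.35 on the log2 scale in the clones (standard error 0.22), at adjusted p-values from limma of 2.02e-07, 5.16e-07 and 2.69e-07. It fell by 1.93 in *NRF2* KO (adjusted p = 0.001). *Cbr3* was the 1 member called in *NRF2* KO, and this call was lost when only *NRF2* KO and LL2 WT were fitted (adjusted p = 0.205 from limma, and 5.4e-05 to 0.205 over the 16 alternatives).

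*Cbr1* was at 25.1, 23.5 and 18.3 CPM in LL2 WT and at 20.7, 17.9 and 18.1 CPM in *NRF2* KO. It was at 43.0, 35.4 and 40.2 CPM in *KEAP1* KO #1, at 48.8, 47.5 and 42.7 CPM in #2 and at 58.5, 63.7 and 64.5 CPM in #3. The samples of every *KEAP1* KO clone lay above LL2 WT, and *NRF2* KO overlapped with LL2 WT. On the log2 scale the clones differed from LL2 WT by 0.83, 1.06 and 1.49 (standard error 0.12). The last 2 are called (adjusted p = 3.56e-05 and 1.96e-06 from limma), and the first has an adjusted p of 0.000437 and misses the fold threshold. The call in *KEAP1* KO #2 was lost without LL2 WT replicate 3 (0.93) and with replicates 1 and 2 of every line only (0.98).

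Per kilobase of its longest coding transcript, *Cbr3* made up 13.4% to 20.8% of the summed level of *Cbr1* and *Cbr3* in LL2 WT and 4.30% to 6.79% in *NRF2* KO. It made up 57.5% to 62.7% in *KEAP1* KO #1, 43.9% to 49.0% in #2 and 38.9% to 46.2% in #3. *Cbr3* was thus the higher of the pair, per length, in *KEAP1* KO #1. The summed level was 21.7 CPM per kilobase in LL2 WT, 81.5, 69.9 and 88.1 in the clones and 16.2 in *NRF2* KO. Neither flanking gene, *Setd4* or *Dop1b*, was called in any line against LL2 WT.

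*Akr1c18* was at 0.143, 0.0341 and 0 CPM in LL2 WT and at 0.0850, 0.0217 and 0 CPM in *NRF2* KO. It was at 5.79, 6.50 and 6.82 CPM in *KEAP1* KO #1, at 4.97, 4.82 and 5.34 CPM in #2 and at 4.24, 4.33 and 7.11 CPM in #3. The lines without the *Keap1* edit lay near the floor, and all 9 *KEAP1* KO samples lay above them. Its rise on the log2 scale was 5.44, 5.11 and 5.13 (standard error 0.34), with limma giving adjusted p-values of 2.78e-07, 2.81e-07 and 2.54e-07. Their size depends on the pseudocount, since LL2 WT is near 0. The gene passed the filter only through the *KEAP1* KO samples.

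*Akr1c13* was at 0.0607, 0 and 0 CPM in LL2 WT, all under the floor. It was at 2.90, 2.42 and 2.38 CPM in *KEAP1* KO #1, at 4.48, 4.97 and 2.61 CPM in #2 and at 5.90, 6.998 and 5.87 CPM in #3. Against the floor of 0.1 CPM per sample the mean was at least 25.6-fold higher in #1, at least 40.2-fold in #2 and at least 62.6-fold in #3. Limma gave adjusted p-values of 2.79e-05, 4.87e-06 and 1.53e-06, for a gene that also passed the filter only through the *KEAP1* KO samples. In *NRF2* KO it was at 0.0399, 0.585 and 0.309 CPM, which overlapped with LL2 WT and was not called (adjusted p = 0.212 from limma). It was called without *NRF2* KO replicate 1 (adjusted p = 0.0207 from limma). Of the 31-base stretches of *Akr1c13* 39.2% also occur in *Akr1c12*, so reads can be exchanged between the 2 genes. *Akr1c12* was at 0 to 0.872 CPM over all samples.

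*Akr1c14* did not follow this pattern. It was at 0.767, 0.705 and 1.16 CPM in LL2 WT. It was at 14.9, 9.98 and 10.9 CPM in *KEAP1* KO #1, at 0.171, 0.144 and 0.321 CPM in #2 and at 1.06, 1.83 and 1.66 CPM in #3. *KEAP1* KO #1 lay above and #2 below every LL2 WT sample, and #3 overlapped with LL2 WT. The log2 fold changes were 3.63 in #1 (adjusted p = 1.13e-05 from limma), −1.66 in #2 (adjusted p = 0.00218) and 0.72 in #3 (adjusted p = 0.115), with a standard error of 0.33. The call in #2 did not hold when 1 CPM (−0.63) or 0.5 CPM (−0.95) was added before the logarithm, at levels close to the floor. In *NRF2* KO it was at 0.476, 0.350 and 0.196 CPM, below LL2 WT, and not called (log2 fold change −1.17, adjusted p = 0.174 from limma).

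*Akr1c21*, a 17-alpha-hydroxysteroid dehydrogenase, was at no more than 0.497 CPM in any sample, and its lines overlapped. *Akr1b7*, known from the adrenal gland and vas deferens, was at no more than 0.567 CPM. Per kilobase, the 4 *Akr1c* members summed to 0.522 in LL2 WT, 11.2, 7.67 and 10.0 in the clones and 0.503 in *NRF2* KO. *Akr1c14* made up 29.6% to 39.1% of this sum in *KEAP1* KO #1, 0.563% to 1.43% in #2 and 3.70% to 5.89% in #3. Its share was 34.1% to 85.2% in LL2 WT and 12.4% to 42.7% in *NRF2* KO, of sums close to the floor.

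**Figure D2:**
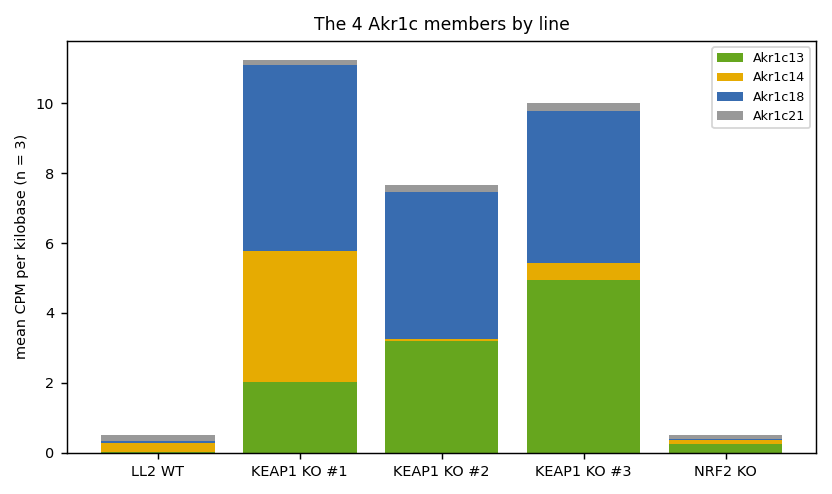
Mean CPM per kilobase of the longest coding transcript (n = 3) of the 4 *Akr1c* members, stacked, for each line. The sum is 7.67 to 11.2 in the *KEAP1* KO clones and about 0.5 in LL2 WT and *NRF2* KO, and among the clones *Akr1c14* takes its largest share in *KEAP1* KO #1.

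*Akr1b3* had the highest mean of the members in every line, per kilobase and in CPM. In LL2 WT replicate 3, however, *Akr1b3* (120.2 CPM) and *Akr1b8* (120.0 CPM) were nearly level. *Akr1b3* was at 288.5, 349 and 120 CPM in LL2 WT and at 297, 325 and 153 CPM in *NRF2* KO. It was at 399, 477 and 343 CPM in *KEAP1* KO #1, at 1154, 1158 and 682 CPM in #2 and at 755, 808 and 445 CPM in #3. *KEAP1* KO #2 and #3 lay above every LL2 WT sample and #1 overlapped. The log2 fold changes were 2.08 in #2 (standard error 0.40, adjusted p = 0.00162 from limma) and 1.49 in #3 (adjusted p = 0.0119), both called, and were not called at 0.81 in #1 (adjusted p = 0.159) or at 0.10 in the *NRF2* KO clone (adjusted p = 0.958). The call in #3 was lost when only #3 and LL2 WT were fitted (adjusted p = 0.0626 from limma) and without *KEAP1* KO #3 replicate 2 (0.0521). The range over the 16 alternatives was 2.25e-05 to 0.0626. In #1 the adjusted p from limma ranged from 0.00231 to 0.553. It was 0.00231 with the replicate number as a block (0.81) and 0.0219 with replicates 1 and 2 only (0.46). Both of these miss the fold threshold.

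Replicate 3 was the lowest *Akr1b3* sample in all 5 lines, at 37.7% of the mean of replicates 1 and 2 in LL2 WT, 78.3%, 59.0% and 56.9% in the clones and 49.4% in *NRF2* KO. Averaged over the lines, replicate 3 lay 0.87 below the others on the log2 scale, rank 40 from the lowest of the 9490 genes that averaged 5 CPM or more. The same difference was −0.14 for *Akr1b8* and 0.42 for *Akr1b10*. What distinguished replicate 3 was not tested. With replicates 1 and 2 only, an alternative chosen after seeing the data, the log2 fold changes of *Akr1b3* were 0.46, 1.86, 1.299 and −0.03. Of its 31-base stretches 84.9% also occur in other genes, so reads can be exchanged. The gene that shares most, *Gm38056* (82.5%), has no entry under that symbol among the CPM values, so its level is unknown. *Gm6644*, *Gm6736* and *Gm12138* were at no more than 1.18 CPM.

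**Figure D3:**
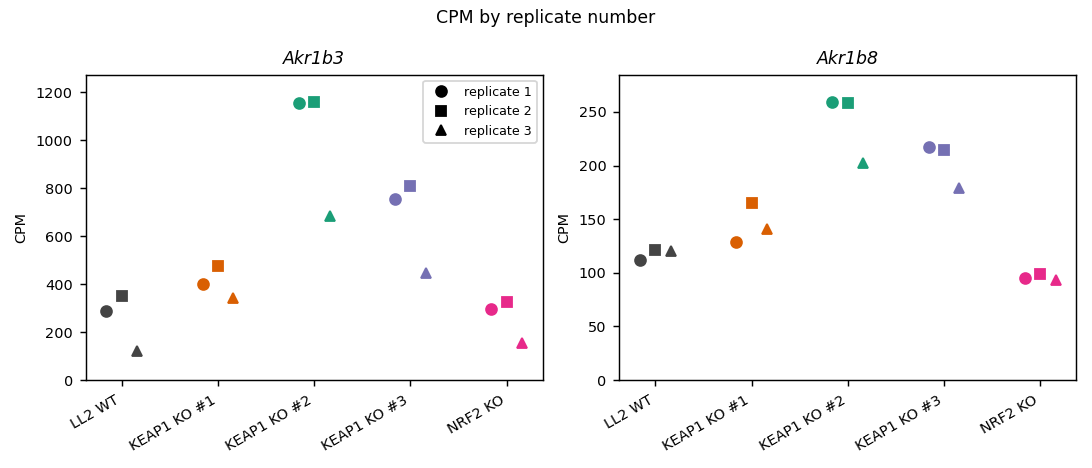
CPM of *Akr1b3* and *Akr1b8* by line, with the marker giving the replicate number. Replicate 3 of *Akr1b3* is the lowest sample in each of the 5 lines, from 120 CPM in LL2 WT to 682 CPM in *KEAP1* KO #2.

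*Akr1b8*, an aldehyde reductase, was at 112, 121 and 120 CPM in LL2 WT and at 95.4, 98.5 and 93.1 CPM in *NRF2* KO. It was at 129, 165.5 and 141 CPM in *KEAP1* KO #1, at 259, 259 and 202 CPM in #2 and at 217, 215 and 179 CPM in #3. The samples of each clone lay above LL2 WT and those of *NRF2* KO below. The log2 fold changes were 0.30, 1.02 and 0.79 in the clones and −0.30 in *NRF2* KO (standard error 0.12), of which only that in #2 is called (adjusted p = 3.58e-05 from limma). This call rests on the fold threshold and was lost under quantile normalization (0.88), and also without LL2 WT replicate 1 (0.98), *KEAP1* KO #2 replicate 1 (0.96) or replicate 2 (0.96).

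*Akr1b10* was at 26.4, 25.6 and 36.4 CPM in LL2 WT, at 24.9, 17.2 and 25.8 CPM in *KEAP1* KO #1, at 15.6, 15.5 and 21.4 CPM in #2, at 14.9, 16.4 and 23.9 CPM in #3 and at 22.4, 25.0 and 28.2 CPM in *NRF2* KO. *KEAP1* KO #2 and #3 did not overlap with LL2 WT and were lower. Their differences of −0.75 (adjusted p = 0.0189 from limma) and −0.69 (adjusted p = 0.0282) on the log2 scale miss the fold threshold. The genes on either side of the cluster, *Slc35b4* and *Bpgm*, were not called in any line against LL2 WT. In this cluster, 2 neighbors on opposite strands, *Akr1b3* and *Akr1b8*, had their highest means in *KEAP1* KO #2, where *Akr1b10* had its lowest.

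**Figure D4:**
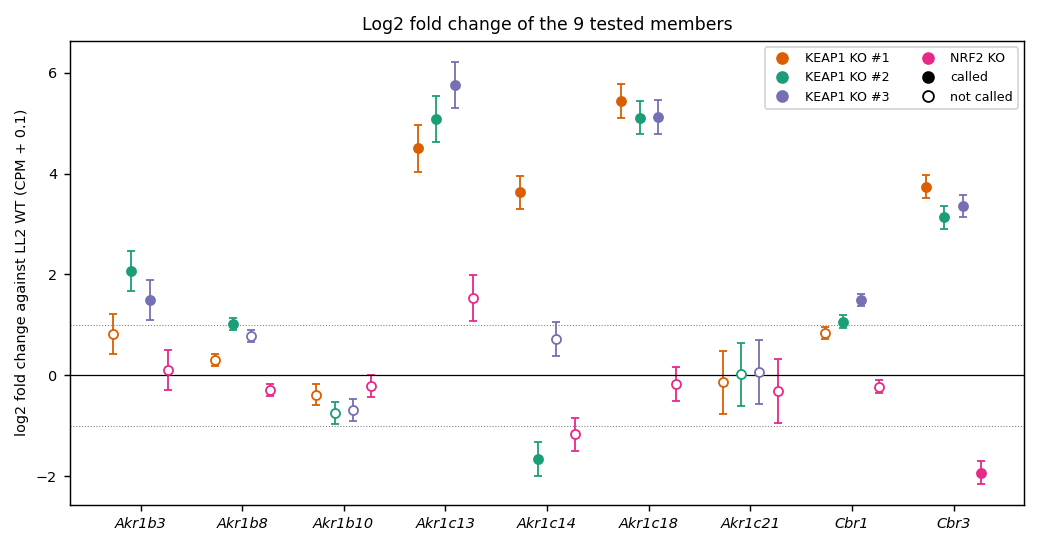
Log2 fold change against LL2 WT on the log2(CPM + 0.1) scale with its standard error, for the 9 tested members and 4 lines. Filled points are called, open points are not, and dotted lines mark a log2 fold change of 1 and −1. *Akr1c13*, *Akr1c18* and *Cbr3* are filled in all 3 *KEAP1* KO clones, and *Akr1c14* lies on both sides of 0.

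Between *KEAP1* KO #1 and #2, 1 of 9 tested members was called higher in #1 and 0 lower, where 2.79% of all genes were called higher and 1.79% lower. Between #1 and #3 it was 1 higher and 0 lower (2.6% and 2.03% of all genes), and between #3 and #2 again 1 higher in #3 and 0 lower (0.259% and 0.225%). The member was *Akr1c14* each time. Its level in *KEAP1* KO #1 exceeded that in #2 by 5.29 (adjusted p = 1.91e-06 from limma) and that in #3 by 2.91 (adjusted p = 0.00015) on the log2 scale, and #3 exceeded #2 by 2.38 (adjusted p = 0.00297). These sizes depend on the pseudocount, since #2 lies near the floor: with 1 CPM they were 3.40, 2.36 and 1.04, and with 0.01 CPM 5.81, 2.98 and 2.82, all called. The call of #3 over #2 was lost when only those 2 lines were fitted (adjusted p = 0.0731 from limma, and 0.00189 to 0.0731 over the 16 alternatives).

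*Akr1b3* was lower in *KEAP1* KO #1 than in #2 by a log2 difference of −1.27, with samples that did not overlap and an adjusted p of 0.058 from limma. It was called with quantile normalization (adjusted p = 0.0331 from limma), when only the 2 lines were fitted (0.0259), without *KEAP1* KO #2 replicate 3 (0.0446), with the replicate number as a block (0.000278), and with replicates 1 and 2 only (0.000616). The range over the 16 alternatives was 0.000278 to 0.187. *Akr1b8* differed by −0.72 between #1 and #2 (adjusted p = 0.00183 from limma) and *Cbr1* by −0.66 between #1 and #3 (adjusted p = 0.00438), both under the fold threshold. *Akr1c13* differed by −1.26 between #1 and #3 (adjusted p = 0.1 from limma). It was called with a pseudocount of 1 CPM (adjusted p = 0.00398) or 0.5 CPM (0.0108) and when only these lines were fitted (0.0146), and the range over the 16 alternatives was 0.00398 to 0.382. *Akr1c18* differed by 0.33 at most between clones and *Cbr3* by 0.61, and neither passed the test. Order therefore depended on the gene: the mean was highest in *KEAP1* KO #1 for *Cbr3*, *Akr1c14* and *Akr1c18*, in #2 for *Akr1b3* and *Akr1b8* and in #3 for *Cbr1* and *Akr1c13*, although the highest clone overlapped with the next for *Cbr3*, *Akr1c18*, *Akr1b3* and *Akr1b8*, and the second with the third for *Cbr1*, *Akr1c13*, *Cbr3*, *Akr1c18* and *Akr1b3*.

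Of 12 other aldo-keto reductases, 6 were tested and 0 were called in the 4 lines by limma, although 4 of the 6 had an unadjusted p under 0.05 in *KEAP1* KO #2, 2 in #3 and 0 in #1 and *NRF2* KO. Their median log2 fold changes were −0.10, −0.57, −0.27 and −0.20. The share of all genes under that unadjusted p was not taken here either. Tested were *Akr1a1*, *Akr1e1*, *Akr7a5*, *Kcnab2* and the low *Kcnab1* (means of 0.183 to 0.443 CPM) and *Kcnab3* (0.453 to 0.864 CPM). The filter left out *Akr1c12*, with means of 0.0442 CPM in LL2 WT, 0.203, 0.187 and 0.487 CPM in the clones and 0.0617 CPM in *NRF2* KO. The other genes left out were at no more than 0.309 CPM, so the absence of calls covers only the tested genes. Of 22 other carbonyl, quinone and alkenal reducing enzymes tested, 3 were called higher and 2 lower in *KEAP1* KO #1, 2 and 3 in #2, 2 and 2 in #3, and 0 and 1 in *NRF2* KO, with medians of 0.02, −0.21, −0.28 and −0.10. Of all genes, 4.55% were called higher and 3.99% lower in #1, 5.94% and 7.75% in #2, 6.09% and 7.34% in #3, and 0.0887% and 0.375% in *NRF2* KO. Whether these lists differ from all genes was not tested.

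*Nqo1*, the quinone reductase, had log2 fold changes of 3.97, 3.19 and 4.02 in the clones and −1.61 in *NRF2* KO, all called. *Adh7*, an alcohol dehydrogenase active on retinol, had 3.08, 2.65 and 3.31, all called, and 0.31 in *NRF2* KO. *Dhrs9*, a retinol dehydrogenase, was called lower in each clone (−2.28, −1.11 and −1.16). Named after their values were seen, *Cbr2* was called higher and *Dcxr* lower in *KEAP1* KO #1, *Dhrs3* lower in #2, and *Rdh10* lower in #2 and #3. *Cbr2* was low, at 0.447 to 1.95 CPM in #1 and 0 to 0.411 CPM in LL2 WT. *Dhrs3* in #2 (0.346 to 2.84 CPM) overlapped with LL2 WT (2.29 to 13.7 CPM), at an adjusted p of 0.0416 from limma.

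Sorbitol dehydrogenase (*Sord*), which takes the product of aldose reductase on to fructose, was called higher in all 3 clones, with log2 fold changes of 2.40, 2.72 and 2.81, and was at −0.64 in *NRF2* KO (adjusted p = 0.0901 from limma). Of the 31-base stretches of *Sord* 35.9% also occur in *Gm6652*, whose level was not taken, so reads can be exchanged. *Sord* was 1 of 6 polyol route and osmolyte genes, of which 1 other, *Tkfc*, was called, lower in *KEAP1* KO #1 (−1.04). The medians of these 6 genes were −0.37, −0.29, −0.29 and −0.01. Of all genes, 4.55%, 5.94% and 6.09% were called higher in the clones, and 3.99% lower in *KEAP1* KO #1. Of 6 genes listed under NADPH supply, 3, 3 and 4 were called higher in the clones, beside the same shares of all genes. In *NRF2* KO 1 was called lower, beside 0.375% of all genes. The medians of this list were 0.72, 0.95, 1.22 and −0.55. The list includes *Taldo1* and *Tkt* of the pentose phosphate route, whose enzymes make no NADPH themselves. *G6pdx*, the first enzyme of the pentose phosphate route, had 1.02, 1.57 and 1.34, *Me1*, malic enzyme, 1.47, 1.43 and 1.65, and *Taldo1*, transaldolase, 1.17, 1.39 and 1.53, all called. *Me1* was called lower in *NRF2* KO (−1.06), and *Pgd* was called in *KEAP1* KO #3 (1.09).

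The genes most like each member were found by the root mean square difference over the 4 log2 fold changes against LL2 WT, among 12498 other genes averaging 1 CPM or more in a line. For *Cbr3* they were *Nqo1* (0.39), *Blvrb* (0.41) and *Ptgs2* (0.68). For *Akr1c18* they were *Trim54* (0.52), *Rnf128* (0.55) and *Cyp1a1* (0.60), and for *Akr1c13* *Gm6013* (0.56), *Sema3c* (0.67) and *Nt5e* (0.72). *Akr1c14* had no gene closer than 0.87 (*Gm36627*), followed by *AA684185* (1.08) and *Cbr2* (1.09). For *Cbr1* they were *Sh3d19* (0.09), *Btc* (0.14) and *Tmem267* (0.15), for *Akr1b3* *Odad1* (0.15), *Clcf1* (0.17) and *Cyp2c52-ps* (0.17), and for *Akr1b8* *Arap2* (0.06), *Rundc3a* (0.06) and *B4galt5* (0.08). The 4 comparisons share LL2 WT, and genes with smaller changes have more close neighbors, so these distances are a description.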

How the data were processed

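RNA sequencing of 5 LL2 lines, 3 biologic replicates each, was analysed from the CPM table deposited by the authors, who pseudo-aligned reads with Kallisto. Their methods give GRCm38.p6 and the labels' processing notes name GRCm39; positions here are GRCm38. Strand setting and the depth of each sample are not given in the sources used here. CPM summed to 998941 to 999306 over genes with a symbol; 1 entry without one (0.0215% to 0.0490% of CPM) was left out. No 2 samples were identical.

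Genes with a CPM sum of at least 3 were tested with limma 3.58.1 (R 4.3.3) on log2(CPM + 0.1), with a mean per line and a trended empirical Bayes step, and tested on simulated data first. Members and lists were chosen with earlier results of these data known. All members were named, with list genes called alike in all 3 clones, called in *NRF2* KO or called in opposite directions, and the 3 nearest patterns per called member. Gene models were GENCODE M21 and windows RefSeq. The p-values measure the spread between these samples. Replicate numbers were taken to pair lines only if all 3 same-numbered samples correlated above a set limit. Only *KEAP1* KO #3 with #2 passed (r = 0.28, 0.13 and 0.55). In the other comparisons replicate 1 failed (r = −0.02 to 0.09). Replicates 2 (0.23 to 0.53) and 3 (0.42 to 0.63) did correlate there, and the main model has no term for the replicate number. Alternatives covered scaling, pseudocount, filter, samples fitted, replicate block and left-out replicates.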

Additional observations from a re-analysis of the deposited data

Results flagged for a closer look

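*Akr1c14* differed between *KEAP1* KO clones by the test of the difference itself. On the log2 scale *KEAP1* KO #1 exceeded #2 by 5.29, #1 exceeded #3 by 2.91 and #3 exceeded #2 by 2.38. Over the 16 alternatives the values ranged from 3.40 to 5.81, from 2.36 to 3.05 and from 1.04 to 2.82, with *KEAP1* KO #2 near the floor. The 3 samples of each clone did not overlap with those of the other in any of these comparisons. The nearest members of the cluster, *Akr1c18* and *Akr1c13*, were called in none of the 3, although *Akr1c13* was called lower in #1 than in #3 with a pseudocount of 1 or 0.5 CPM and when only these lines were fitted. Each clone is a single isolate, so a property of the clone and an effect of its edit cannot be told apart.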

How the results depend on the processing

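Of 1001 log2 fold changes of members under an alternative, 945 kept their direction and side of the threshold, 12 lost a call, 9 gained one and 35 changed sign; no called value changed sign. The members called fell from 1 to 0 when only the 2 lines compared were fitted, in *NRF2* KO against LL2 WT and in *KEAP1* KO #3 against #2. They rose from 1 to 2 in *KEAP1* KO #1 against #2 with quantile normalization, only the 2 lines compared or replicates 1 and 2 only (2 each), and in *KEAP1* KO #1 against #3 with a pseudocount of 1 or 0.5 CPM or only the 2 lines compared (2 each). With the replicate block the count in *KEAP1* KO #1 against #2 was also 2. Between these lines replicate 1 did not correlate (r = 0.03), while replicates 2 and 3 did (0.28 and 0.45). In the paired comparison of *KEAP1* KO #3 with #2 the block changed no call, with 1 member called. Leaving out 1 replicate gave 4 to 4, 6 to 7, 4 to 5 and 1 to 2 members called against LL2 WT in *KEAP1* KO #1, #2, #3 and *NRF2* KO, and 1 to 2, 1 to 1 and 1 to 1 between #1 and #2, #1 and #3, and #3 and #2. The member gained was *Akr1b3* between #1 and #2 and *Akr1c13* between #1 and #3. The cause of these changes was not tested.

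The changes of sign were in values near 0. *Akr1c21* became −0.026 with quantile normalization, −0.15 with a pseudocount of 0.01 CPM and −0.85 with replicates 1 and 2 only in *KEAP1* KO #2 against LL2 WT, and −0.0032, −0.077 and −0.44 in #3. It became 0.014 with a pseudocount of 0.01 CPM and 0.44 with replicates 1 and 2 only between #1 and #2, and 0.033 with the latter between #1 and #3. *Akr1c18* between #3 and #2 became −0.020 with quantile normalization and −0.19 with replicates 1 and 2 only, and *Akr1b3* in *NRF2* KO −0.031 with the latter. Without 1 replicate, *Akr1c21* ranged from −0.51 to 0.18, −0.48 to 0.60, −0.40 to 0.68 and −0.69 to 0.0015 in *KEAP1* KO #1, #2, #3 and *NRF2* KO against LL2 WT, and from −0.75 to 0.34, −0.82 to 0.26 and −0.54 to 0.66 between #1 and #2, #1 and #3, and #3 and #2. In *NRF2* KO, *Akr1b3* ranged from −0.37 to 0.44 and *Akr1c18* from −0.46 to 0.18; between #3 and #2, *Akr1b10* ranged from −0.14 to 0.21 and *Akr1c18* from −0.23 to 0.14. Levels near 0.1 CPM rest on few reads, so *Akr1b7*, *Akr1c21* and the LL2 WT values of *Akr1c13* and *Akr1c18* allow no firm order. In *KEAP1* KO #1 rescaling moved the median of all genes from 0.11 to 0.01.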
